A study of Homo sapiens with 12 samples.

Results

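Ribosome footprints of HEK293T cells labelled GIGYF1/2-null were compared with those of wild-type (WT) HEK293T cells, for every gene that passed a filter on low counts. Footprints are the short mRNA fragments that a ribosome shields from nuclease (Ribo-seq), so the count of a gene rises both with more of its mRNA and with more ribosomes on each mRNA. HEK293T is a human embryonic kidney line that carries the SV40 large T antigen. The comparison used 4 libraries of the 12 in the series: 2 GIGYF1/2-null and 2 WT, all harvested 24 h after plating on 15 cm dishes and with no treatment. The 2 Ribo-seq libraries of 4EHP-null cells entered the fit so that 3 genotypes shared 1 estimate of the spread, and RNA-seq of the same genotypes gave the mRNA change of each gene. Of 27011 genes in the table, 14722 were tested.

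GIGYF1 and GIGYF2 are paralogous scaffold proteins. They hold 4EHP, a relative of the cap-binding protein eIF4E that binds the mRNA cap without recruiting the initiation machinery, and they can be brought to an mRNA by RNA-binding proteins, by the microRNA machinery or by ZNF598, which senses collided ribosomes. The complex is known as a repressor of translation, and GIGYF proteins can also bring in factors that shorten and decap mRNA. The study's title concerns mRNA decay that is coupled to translation, so the comparison asks which genes gain or lose ribosome footprints when both scaffolds are disrupted. The labels do not say how the cells were edited, whether a genotype was 1 clone, or whether replicates were separate cultures, and p-values cover no more than the spread among the libraries at hand.

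The GIGYF1/2-null libraries held 8333244 and 10816080 footprint counts, against 6968894 and 10611080 in the WT libraries. The 10 most counted genes took 7.72% and 7.57% of GIGYF1/2-null counts, against 6.35% and 6.39% of WT counts. Levels below are CPM, counts scaled by TMM to a common library size, changes are log2 fold changes of GIGYF1/2-null over WT ± standard error (n = 2 libraries each), and adjusted p-values are from edgeR with Benjamini-Hochberg adjustment over all tested genes. With 2 libraries against 2, an exact permutation test of a single gene cannot go below p = 0.3333 (two-sided). In bulk libraries, fewer cells with an mRNA and less of it in each cell cannot be told apart. Footprints of the 6 tested among 16 leukocyte markers summed to 23.05 and 23.44 CPM in GIGYF1/2-null libraries and 17.8 and 19.5 CPM in WT libraries, with the defining genes CD3E, CD4 and MS4A1 at 0 counts in all 4. The 12 tested among 14 background genes of HEK293 cells, NEFL, VIM and KRT8 among them, summed to 2300 and 1647 CPM in GIGYF1/2-null libraries and 2823 and 2353 CPM in WT libraries. PAX8, also on that list, had 0 counts in all 4.

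The targeted genes gave different answers. GIGYF1 had 1.70 and 2.74 CPM in GIGYF1/2-null libraries (14 and 31 counts), against 8.69 and 6.72 CPM in WT libraries (60 and 71 counts). Both GIGYF1/2-null libraries lay below both WT libraries, and the fall of 1.73 on the log2 scale passed the test (-1.73 ± 0.29, adjusted p = 0.012). That call was lost when WT replicate 1 was left out (adjusted p = 0.0735). GIGYF1 lies on chromosome 7 within a stretch of neighbouring genes that were lower together, described further on, and its mRNA was lower as well (-0.76 ± 0.11). GIGYF2 had 81.6 and 51.7 CPM in GIGYF1/2-null libraries, against 90.8 and 63.9 CPM in WT libraries. These ranges overlapped, and the change did not pass the test (-0.21 ± 0.22, adjusted p = 0.671). Counts summed over the gene therefore did not differ detectably for GIGYF2, although its loss is part of the label. The cells are called GIGYF1/2-null here by their label alone.

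The partners of the scaffolds did not pass the test. EIF4E2, which encodes 4EHP, had 40.4 and 35.8 CPM in GIGYF1/2-null libraries, against 38.1 and 33.5 CPM in WT libraries (0.09 ± 0.16, adjusted p = 0.815). ZNF598, the sensor of ribosome collisions, had 40.5 and 38.5 CPM in GIGYF1/2-null libraries, against 41.29 and 38.03 CPM in WT libraries (-0.005 ± 0.14, adjusted p = 0.992). The groups overlapped for both genes. In all, 14 of 15 genes of the complex and its partners were tested, 0 rose and 1 fell, with a median change of -0.10 beside 0.0022 over all tested genes. The lowest values after GIGYF1 belonged to the GIGYF partner PRRC2C (-0.74 ± 0.24, adjusted p = 0.127) and to SMG9, a factor of nonsense-mediated decay (-0.73 ± 0.22, adjusted p = 0.108). The decapping activator DDX6, which GIGYF proteins bind, was at -0.35 ± 0.13 (adjusted p = 0.187).

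Footprints of 107 genes rose (0.727% of those tested) and footprints of 200 genes fell (1.36%), 307 in all (2.09%). Leaving out 1 library moved the total to 62 without WT replicate 1, 59 without WT replicate 2, 671 without GIGYF1/2-null replicate 1 and 152 without GIGYF1/2-null replicate 2. Upper-quartile scaling gave 132 higher and 139 lower, and DESeq2 75 higher (0.509%) and 232 lower (1.58%), while limma-voom gave 105 higher (0.713%) and 220 lower (1.49%). With the replicate number as a block, 632 were higher and 1115 lower (1747 in all), though the labels do not say that the numbers pair the libraries. The change was at least 2-fold for 68 of the genes that rose and 61 of those that fell. In every one of the 307, both GIGYF1/2-null libraries lay on one side of both WT libraries. The same held, without regard to any test, for 24.2% of all tested genes in the higher direction and 23.7% in the lower direction. Of the genes that rose, 95 were protein-coding, and of those that fell, 196. Genes that fell were counted deeper (median average log2 CPM 5.26) than genes that rose (3.35), and the median over all tested genes was 4.09. Among the 3681 genes with the lowest counts, 36 rose and 7 fell, and among the 3681 with the highest counts 16 rose and 83 fell.

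Upstream sequences are shown for 3 genes that rose, since known response elements can be read in them: IFIH1 and OAS3, both sensors of double-stranded RNA that interferon induces, and MT2A, a metallothionein that binds zinc and is induced by metals. The windows are the 250 bases before the start of each gene, from RefSeq on GRCh38.p14, written 5′ to 3′ on the strand of the gene. In IFIH1 and OAS3, capitals mark matches to GAAA, any 2 bases and GAAA again, the core of the interferon-stimulated response element, on either strand. In MT2A, capitals mark matches to the metal response core, TGCACNC or TGCGCNC, on either strand.
IFIH1, chr2:162318685-162318934, minus strand: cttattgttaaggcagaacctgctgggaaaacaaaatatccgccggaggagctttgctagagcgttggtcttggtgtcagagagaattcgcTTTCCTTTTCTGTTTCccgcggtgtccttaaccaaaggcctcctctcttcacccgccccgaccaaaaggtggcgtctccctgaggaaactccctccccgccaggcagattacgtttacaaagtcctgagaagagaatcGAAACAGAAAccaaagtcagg
OAS3, chr12:112938224-112938473, plus strand: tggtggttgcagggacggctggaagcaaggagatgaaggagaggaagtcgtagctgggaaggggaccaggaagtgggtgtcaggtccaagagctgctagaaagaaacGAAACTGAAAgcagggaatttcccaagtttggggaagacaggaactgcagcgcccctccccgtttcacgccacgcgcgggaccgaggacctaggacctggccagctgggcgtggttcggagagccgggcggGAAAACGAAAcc
MT2A, chr16:56608334-56608583, plus strand: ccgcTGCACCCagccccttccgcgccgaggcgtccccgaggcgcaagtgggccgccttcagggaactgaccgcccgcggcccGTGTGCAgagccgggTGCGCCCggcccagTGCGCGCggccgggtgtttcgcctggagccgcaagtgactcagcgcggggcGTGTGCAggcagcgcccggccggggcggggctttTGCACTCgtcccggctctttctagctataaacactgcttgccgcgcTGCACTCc
The IFIH1 window holds 3 interferon matches, of which a pair overlap each other, the farther one starting 159 bases upstream, and the other starts 21 bases upstream. The OAS3 window holds 2, starting 143 and 12 bases upstream. Of 35116 RefSeq windows of this length, 3.02% hold at least 1 such match and 0.225% hold 2 or more. The MT2A window holds 7 metal matches, where 24.8% of windows hold at least 1 and 0.120% hold 5 or more. The 3 genes were picked for their matches, after these were seen. Of 75 risen genes with a window, 4.0% held an interferon match and 45.3% a metal match, beside 5.1% and 33.1% of 157 fallen genes and 3.23% and 39.8% of 10466 tested genes. A match describes letters in the window, and binding was not measured.

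IFIH1, the cytosolic receptor also called MDA5, had 15.2 and 14.2 CPM in GIGYF1/2-null libraries, against 1.88 and 2.46 CPM in WT libraries. The groups were far apart, and footprints rose by 2.71 ± 0.23 (adjusted p = 1.44e-04). OAS3, which makes the 2′-5′ oligoadenylates that switch on RNase L, had 23.8 and 18.3 CPM in GIGYF1/2-null libraries, against 4.64 and 3.69 CPM in WT libraries. It rose by 2.35 ± 0.22 (adjusted p = 2.85e-04), and both calls held in every alternative fit tried. The mRNAs rose by 2.44 ± 0.27 for IFIH1 and 2.15 ± 0.15 for OAS3. These were the only members of the interferon list that passed the test: of 28 tested, 2 rose, 0 fell and 26 were not called, with a median of 0.39. Of all tested genes 0.727% rose and 1.36% fell. At an unadjusted p under 0.05, 10 of the 28 were higher and 0 lower, beside 8.1% and 9.43% of all tested genes. The RNA receptor DDX58, also called RIG-I, was at 0.68 ± 0.28 (adjusted p = 0.233), the RNA-binding IFIT5 at 0.58 ± 0.15 (adjusted p = 0.0756) and the ISG15 ligase HERC5 at 0.56 ± 0.15 (adjusted p = 0.0885). BST2, which tethers budding viruses, was at 0.36 ± 0.23 (adjusted p = 0.448). In mRNA, 9 of 26 tested members rose and 0 fell, where 11.9% of all genes tested in mRNA were called (5.2% higher and 6.75% lower). Of those mRNA calls 813 were higher and 1055 lower, against 1002 and 868 with upper-quartile scaling.

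MT2A had 61.9 and 63.8 CPM in GIGYF1/2-null libraries, against 29.6 and 34.4 CPM in WT libraries. All GIGYF1/2-null values exceeded all WT values, and footprints rose by 0.97 ± 0.15 (adjusted p = 0.00779). MT1A rose by 0.84 ± 0.18 (adjusted p = 0.0341). The metallothioneins were looked at after their values were seen. Of 9 tested, 2 rose, 0 fell and the other members ranged upward from 0.09, with a median of 0.72 over the 9. These genes are close copies of one another, so reads may be split among them and single levels are uncertain. HMOX1, heme oxygenase of the oxidative stress response, had 125 and 131 CPM in GIGYF1/2-null libraries, against 34.5 and 40.6 CPM in WT libraries. The libraries of a genotype lay close together, and the gene rose by 1.76 ± 0.17 (adjusted p = 4.40e-04).

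The largest rise among called protein-coding genes with an average log2 CPM of at least 3 was that of ENPP2, which encodes autotaxin, the secreted enzyme that makes lysophosphatidic acid. It had 23.2 and 25.1 CPM in GIGYF1/2-null libraries, against 2.90 and 2.18 CPM in WT libraries (3.28 ± 0.21, adjusted p = 2.79e-05). GPR50, a melatonin-receptor relative with no known ligand, had 101.5 and 113 CPM in GIGYF1/2-null libraries, against 13.2 and 11.9 CPM in WT libraries (3.10 ± 0.16, adjusted p = 3.85e-06). Neither gene had overlapping groups. The antisense gene GPR50-AS1 rose too (3.73 ± 0.48, adjusted p = 0.00326), and reads of the pair cannot be told apart without the strand setting of the counting. CITED1, a transcriptional co-activator of the developing kidney, had 171 and 164 CPM in GIGYF1/2-null libraries, against 27.5 and 34.0 CPM in WT libraries (2.44 ± 0.16, adjusted p = 2.90e-05).

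RPL22L1, a paralogue of the ribosomal protein RPL22, was among the most counted genes that rose, with 460 and 479 CPM in GIGYF1/2-null libraries, against 130 and 138 CPM in WT libraries (1.81 ± 0.14, adjusted p = 8.65e-05). LGALS3BP, a secreted glycoprotein that binds galectin-3, had 399 and 453 CPM in GIGYF1/2-null libraries, against 166 and 176 CPM in WT libraries (1.32 ± 0.17, adjusted p = 0.00343). The spread within a genotype was small beside the gap for both. CCND1, cyclin D1, which drives entry into S phase, had 48.5 and 47.1 CPM in GIGYF1/2-null libraries, against 17.2 and 18.5 CPM in WT libraries (1.41 ± 0.14, adjusted p = 7.30e-04). LOX, which cross-links collagen, had 19.3 and 21.3 CPM in GIGYF1/2-null libraries, against 6.23 and 8.61 CPM in WT libraries (1.43 ± 0.19, adjusted p = 0.00432). SAT1, the enzyme that acetylates spermidine and spermine, rose by 1.43 ± 0.21 (adjusted p = 0.00564), a call that was lost without WT replicate 2 (adjusted p = 0.0593). For all 3 the 4 libraries separated by genotype.

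**Figure D1:**
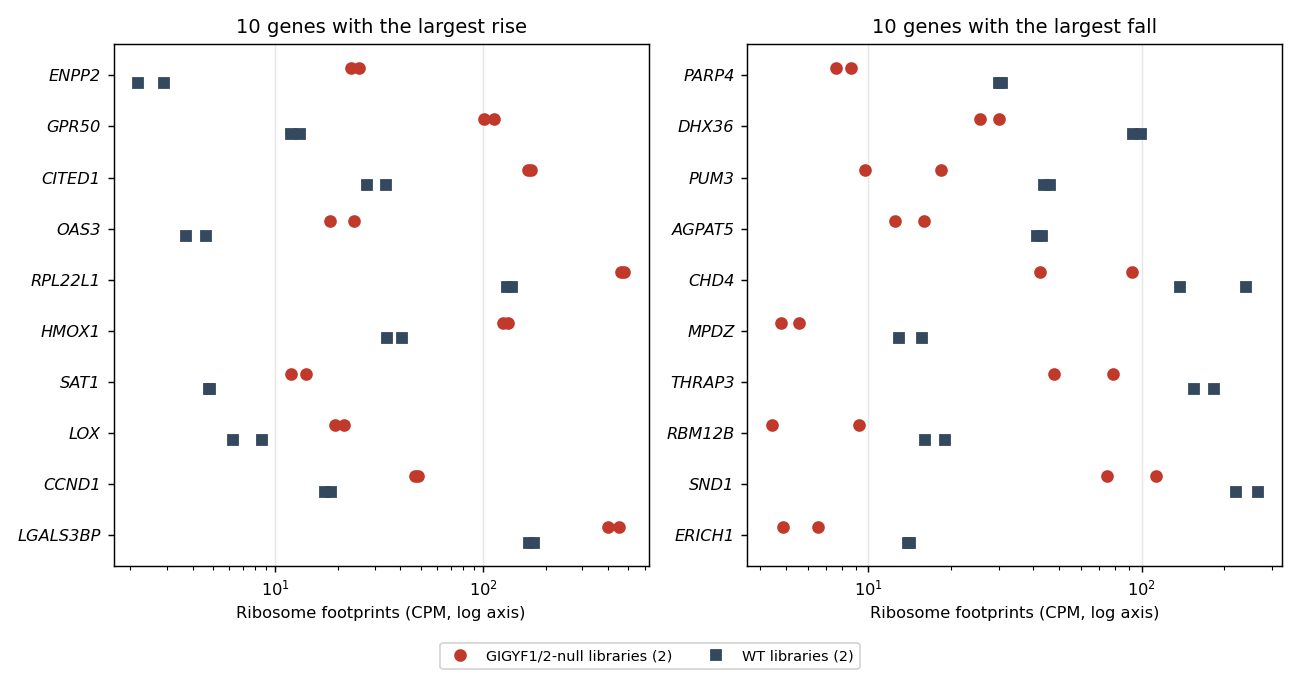
Ribosome footprints in CPM (log axis) in each library for the 10 protein-coding genes with the largest rise (left) and the 10 with the largest fall (right) among called genes with an average log2 CPM of at least 3. Circles are the 2 GIGYF1/2-null libraries and squares the 2 WT libraries; no gene has overlapping groups, and the GIGYF1/2-null values of CHD4 lie farthest apart, at 92.2 and 42.4 CPM.

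Of the 10 largest falls among called protein-coding genes with an average log2 CPM of at least 3, 6 belonged to genes in stretches of neighbours that were lower together. PARP4 on chromosome 13, a vault-associated ADP-ribosyltransferase, had 8.61 and 7.61 CPM in GIGYF1/2-null libraries, against 30.1 and 30.7 CPM in WT libraries (-1.91 ± 0.15, adjusted p = 1.26e-04). PUM3 on chromosome 9, a nucleolar RNA-binding protein, had 18.4 and 9.73 CPM in GIGYF1/2-null libraries, against 46.1 and 44.0 CPM in WT libraries (-1.70 ± 0.23, adjusted p = 0.00449). Both genes had all GIGYF1/2-null values below all WT values. AGPAT5 on chromosome 8, an acyltransferase of phospholipid synthesis, fell by 1.56 on the log2 scale (-1.56 ± 0.16, adjusted p = 7.89e-04). SND1 on chromosome 7, a nuclease and transcriptional co-activator, had 113 and 75.0 CPM in GIGYF1/2-null libraries, against 267 and 221 CPM in WT libraries (-1.38 ± 0.18, adjusted p = 0.00401). MPDZ on chromosome 9, a scaffold with many PDZ domains, fell by 1.46 on the log2 scale (-1.46 ± 0.21, adjusted p = 0.00604), a call lost without WT replicate 1 (adjusted p = 0.0511). ERICH1 on chromosome 8 fell by 1.32 (-1.32 ± 0.21, adjusted p = 0.00904), a call lost without WT replicate 2 (adjusted p = 0.0653).

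The other 4 lay outside such stretches. DHX36, a helicase that unwinds G-quadruplexes in RNA and DNA, had 30.1 and 25.6 CPM in GIGYF1/2-null libraries, against 99.1 and 92.6 CPM in WT libraries. The groups were far apart, and footprints fell by 1.79 on the log2 scale (-1.79 ± 0.15, adjusted p = 1.42e-04). Its mRNA fell by 0.82 (-0.82 ± 0.11), and the footprint change minus the mRNA change was -0.97 ± 0.17, which did not pass the test of that difference (adjusted p = 0.0713). In the authors' deposited table of translation efficiency the value for DHX36 was -0.94 with an adjusted p of 0.00181. THRAP3, a splicing and mRNA decay factor, had 78.4 and 47.7 CPM in GIGYF1/2-null libraries, against 183 and 156 CPM in WT libraries (-1.43 ± 0.20, adjusted p = 0.00458). CHD4, the ATPase of the NuRD chromatin complex, had 92.2 and 42.4 CPM in GIGYF1/2-null libraries, against 241 and 139 CPM in WT libraries (-1.50 ± 0.32, adjusted p = 0.0348). THRAP3 kept its call in every alternative, while CHD4 lost it in DESeq2 and in 5 other alternatives, among them those that left out WT replicate 1 or GIGYF1/2-null replicate 2 (adjusted p up to 0.218). RBM12B, an RNA-binding protein, fell (-1.40 ± 0.28, adjusted p = 0.0282), and that call was lost in 6 alternatives, among them those without WT replicate 1, WT replicate 2 or GIGYF1/2-null replicate 2 (adjusted p up to 0.137).

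Stretches of neighbouring genes were found in the mRNA change alone, as places where the running median over 25 neighbours lay beyond 0.25 on the log2 scale. Footprints were not used to find them, but they come from the same cells, so their values are a description with no test. The 19 lowered stretches held 968 of the tested genes (6.58%) and 129 of the 200 genes whose footprints fell (64.5%). That share was 31.2% without GIGYF1/2-null replicate 1, 35.4% with the replicate number as a block and 41.9% without a filter on low counts. Only 3 genes rose in the lowered stretches. Most of the 19 are separate pieces of chromosome 7, between DNAH11 and WDR60. Over all 712 tested genes of chromosome 7 the median footprint change was -0.28. Outside every stretch, 102 of 13689 tested genes rose and 71 fell. When the genes in stretches were left out of the test, 63 rose and 32 fell.

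The 5 lowered stretches with at least 5 called genes each held 125 of the genes that fell among 787 tested (15.9%). They were picked by their footprint calls, so these shares are high by choice. Footprint medians of the other lowered stretches ran from -1.18 (HARS2 to PCDHGC5) to 0.08 (ZNF713 to MRPS17). On chromosome 13, from ANKRD20A9P to PCCA, 47 of 232 tested genes fell and the median footprint change was -0.50, beside a median mRNA change of -0.59. On chromosome 7, from TSC22D4 to WDR60, 39 of 262 fell, with medians of -0.42 in footprints and -0.52 in mRNA. On chromosome 6, from AMD1 to PDCD2, 16 of 210 fell and 2 rose, with medians of -0.35 and -0.39. The short stretches at the start of the gene order of chromosome 9 (WASH1 to DDX58) and chromosome 8 (RPL23AP53 to PPP1R3B) were the deepest of the 5, with footprint medians of -0.63 over 65 genes and -0.85 over 18 genes. Between 77.6% and 84.6% of the genes in each stretch had a change below 0, beside 49.6% of all tested genes. Both GIGYF1/2-null libraries showed it: on chromosome 13 the median over genes, each relative to its WT mean, was -0.50 and -0.42 in GIGYF1/2-null libraries and -0.05 and 0.04 in WT libraries. In the 4EHP-null libraries the same genes were at 0.14 and 0.02. The cause of these stretches was not tested.

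**Figure D2:**
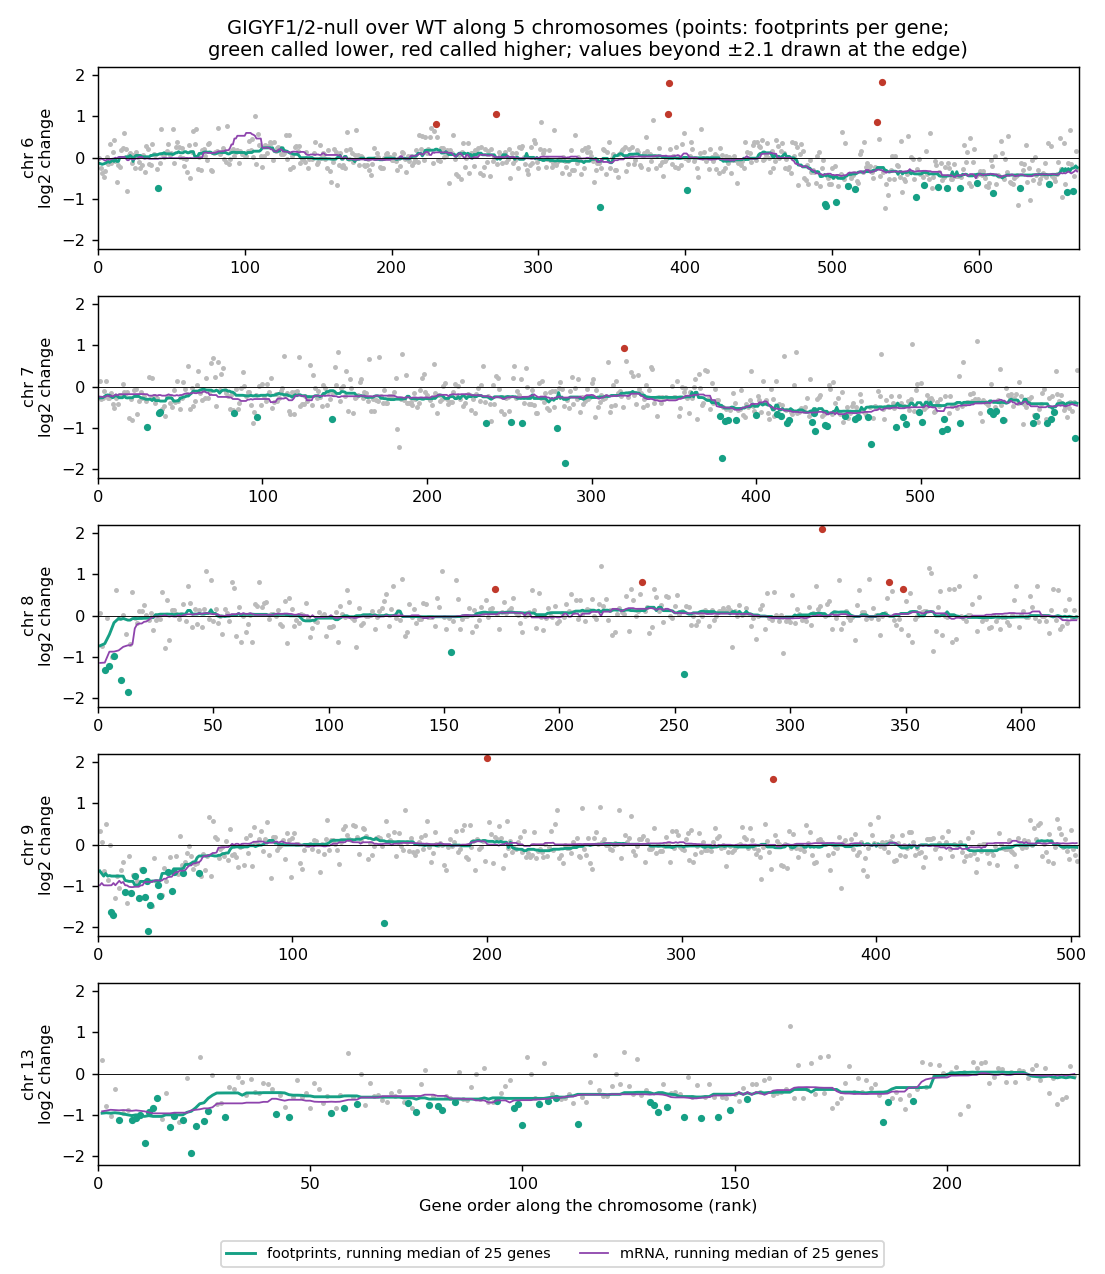
Log2 change of GIGYF1/2-null over WT for genes in order along chromosomes 6, 7, 8, 9 and 13 (x axis, rank of the gene), for genes tested in both assays with an average footprint log2 CPM of at least 1. Points are footprint changes of single genes, green where called lower and red where called higher. The green and purple lines are running medians of 25 genes for footprints and mRNA. Both lie below 0 together over the end of chromosomes 6 and 7, the start of chromosomes 8 and 9, and most of chromosome 13. Chromosome 7 holds shorter lowered stretches before that end as well.

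Footprints mostly followed mRNA. Of the 107 genes whose footprints rose, the mRNA of 87 rose too, that of 13 was not called, 7 were not tested in mRNA and 0 fell. Of the 200 whose footprints fell, the mRNA of 186 fell, that of 13 was not called, 1 was not tested and 0 rose. The median change of the genes that rose was 1.2 in footprints and 1.15 in mRNA, and of those that fell -0.86 in footprints and -0.71 in mRNA. Chosen the other way round, by their mRNA, 701 genes higher in mRNA had a median footprint change of 0.53 beside 0.62 in mRNA, and 95.0% had a footprint change of the same sign. The 1011 genes lower in mRNA had medians of -0.52 and -0.54, and 95.5% had the same sign. Fewer passed the footprint test: 87 of the 701 (12.4%) and 186 of the 1011 (18.4%) were called the same way in footprints.

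**Figure D3:**
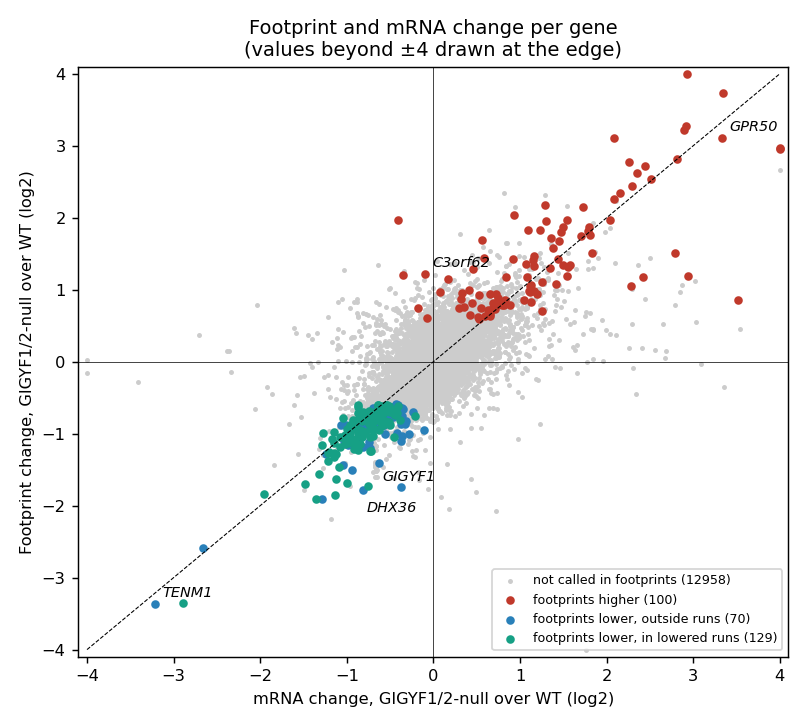
Log2 change of GIGYF1/2-null over WT in footprints (y axis) against mRNA (x axis) for each gene tested in both; the dashed line marks equal changes. Red genes rose in footprints, blue and green genes fell, green those in lowered stretches of neighbours, and nearly all lie in the quadrants where both changes have 1 sign.

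The difference between the footprint and the mRNA change, often called translation efficiency, passed its test for 6 of 13257 genes (0.0453%), 5 higher (0.0377%) and 1 lower (0.00754%), and 586 had an unadjusted p under 0.05. The higher calls depended on the settings: 0 were higher with a minimum fold of 1.2 or without the genes in stretches, 1 with only the GIGYF1/2-null and WT libraries (3 lower), and 0 to 2 without 1 library. DESeq2 called 12 higher and 8 lower.

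C3orf62 was the only gene that rose in both footprints and this difference. It had 880 and 711 CPM of footprints in GIGYF1/2-null libraries, against 335 and 352 CPM in WT libraries (1.21 ± 0.17, adjusted p = 0.00449), a call lost without either WT replicate (adjusted p up to 0.0680). Its mRNA had 7.85 and 7.75 CPM in GIGYF1/2-null libraries, against 8.98 and 7.69 CPM in WT libraries, with overlapping groups. The difference was 1.30 ± 0.21 (adjusted p = 0.0461), and that call was lost with a minimum fold of 1.2, without the genes in stretches, and without any 1 of 7 of the 8 libraries. The gene LOC100506127 had nearly the same footprint counts (7337 and 8148 in GIGYF1/2-null libraries, 2348 and 3806 in WT libraries, beside 7257 and 8041 and 2309 and 3726 for C3orf62), so the reads of the pair cannot be assigned to one of them. The 4EHP-null libraries had 1901 and 1523 CPM of C3orf62 footprints.

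The other 4 genes with a higher difference lie in the lowered stretches of chromosomes 7 and 9, and their footprints did not pass the test. SMARCA2, an ATPase of the SWI/SNF chromatin complex, had 52.4 and 44.8 CPM of footprints in GIGYF1/2-null libraries, against 54.8 and 43.1 CPM in WT libraries, while its mRNA fell (-1.33 ± 0.12). Its groups overlapped in footprints, and the difference was 1.32 ± 0.19 (adjusted p = 0.0442). MLLT3, a subunit of elongation complexes, had 83.6 and 77.3 CPM of footprints in GIGYF1/2-null libraries, against 73.6 and 66.8 CPM in WT libraries, with a difference of 1.08 ± 0.17 (adjusted p = 0.0461). ORAI2, a calcium channel subunit, had a difference of 1.00 ± 0.16 (adjusted p = 0.0479), and the non-coding LINC01000 one of 1.42 ± 0.23 (adjusted p = 0.0479). The mRNAs of all 4 fell.

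**Figure D4:**
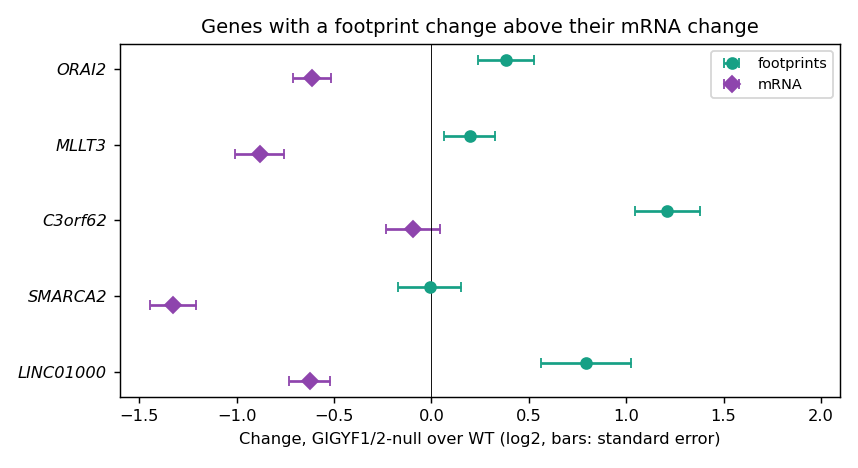
Log2 change of GIGYF1/2-null over WT in footprints (circles) and mRNA (diamonds) with standard errors, for the 5 genes called with a footprint change above their mRNA change. Every circle lies to the right of the diamond of its gene, and the mRNA of C3orf62 alone lies near 0, at -0.09.

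Most genes of the translation machinery were uncalled, as were most of all tested genes, of which 0.727% rose and 1.36% fell in edgeR. Of 79 cytosolic ribosomal proteins tested, 0 rose and 0 fell in edgeR, DESeq2 or limma-voom, and at an unadjusted p under 0.05 3 were higher and 1 lower, where 8.1% of all tested genes were higher and 9.43% lower. The list had a median of 0.13, while their mRNA median was -0.15 and 4 of 78 fell in mRNA. The footprint change was above 0 for 64 of the 79 (81.0%) and below 0 for 15, where 50.4% of all tested genes were above 0. Other mRNAs with a 5′ TOP motif, such as those of elongation factors, had 0 called of 18 by any of these tools (4 lower at an unadjusted p under 0.05) and a median of -0.10. Of 44 translation initiation factors 0 were called by any of them (1 higher and 4 lower unadjusted), with a median of -0.06. Among 76 mitochondrial ribosomal proteins 1 fell, MRPS31 of chromosome 13 (-0.94 ± 0.15, adjusted p = 0.0108), and the median was 0.06. Of 23 aminoacyl-tRNA synthetases and cofactors 1 fell, the scaffold AIMP2 (-0.60 ± 0.12, adjusted p = 0.0303), with a median of -0.26. DESeq2 called 2 of the 23 lower, and at an unadjusted p under 0.05 0 were higher and 6 lower. Of 48 ribosome biogenesis genes only PUM3 fell in edgeR, and 4 fell in DESeq2 (median -0.11). At an unadjusted p under 0.05, 0 of the 48 were higher and 11 lower. The MRPS31 call was lost without either WT replicate (adjusted p up to 0.0788), and that of AIMP2 without any 1 of the 4 libraries (up to 0.196).

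The turnover and quality control lists held few calls, all of them falls, where 1.36% of all tested genes fell in edgeR. Of 28 genes of ribosome collision and quality control 1 fell, GIGYF1, with a median of -0.20, and 2 fell in DESeq2 and in limma-voom. At an unadjusted p under 0.05, 0 of the 28 were higher and 9 lower, where 8.1% and 9.43% of all tested genes were. Of 42 genes of deadenylation, decapping and decay 2 fell and 0 rose (0 higher and 8 lower unadjusted), with a median of -0.10. DIS3, the catalytic exosome subunit on chromosome 13, had 108 and 79.8 CPM in GIGYF1/2-null libraries, against 169 and 173 CPM in WT libraries (-0.87 ± 0.16, adjusted p = 0.0161). TTC37, a scaffold of the Ski complex that feeds RNA to the exosome, had 74.2 and 76.1 CPM in GIGYF1/2-null libraries, against 109 and 128 CPM in WT libraries (-0.66 ± 0.14, adjusted p = 0.0375). Neither gene had overlapping groups, and both calls were lost without WT replicate 1, WT replicate 2 or GIGYF1/2-null replicate 2, and that of TTC37 also without GIGYF1/2-null replicate 1 (adjusted p up to 0.108 for DIS3 and 0.273 for TTC37). Of 13 microRNA pathway genes 0 were called by edgeR, DESeq2 or limma-voom (1 lower at an unadjusted p under 0.05, median -0.05), and of 38 proteasome subunits 1 fell, PSMC2 of chromosome 7 (-0.70 ± 0.13, adjusted p = 0.0196). The PSMC2 call was lost without the same 3 libraries as that of DIS3 (up to 0.183).

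Stress response lists had medians below 0. Of 40 tested genes of the integrated stress response and the targets of its transcription factor ATF4, 3 fell and 0 rose, with a median of -0.18. In edgeR 0.727% of all tested genes rose and 1.36% fell. DESeq2 called 4 of the 40 lower and 0 higher. At an unadjusted p under 0.05, 2 were higher and 9 lower, beside 8.1% and 9.43% of all tested genes. The cationic amino acid transporter SLC7A1 had 91.6 and 102.5 CPM in GIGYF1/2-null libraries, against 191 and 212 CPM in WT libraries (-1.05 ± 0.14, adjusted p = 0.00343). All 4 libraries separated by genotype. MTHFD1L, a mitochondrial folate enzyme (-0.87 ± 0.16, adjusted p = 0.0165), and the lipoprotein receptor VLDLR (-1.64 ± 0.33, adjusted p = 0.0281) also fell, and all 3 genes lie in lowered stretches. The SLC7A1 call held without each library, but those of MTHFD1L and VLDLR were lost without either WT replicate and without a GIGYF1/2-null replicate, replicate 2 for MTHFD1L and replicate 1 for VLDLR (adjusted p up to 0.148 and 0.198). ATF4 itself was at -0.16 ± 0.17 (adjusted p = 0.693), and the median of the list outside stretches was -0.15. Of 25 genes of the unfolded protein response 1 fell, the disulfide isomerase PDIA4 of chromosome 7 (-0.60 ± 0.13, adjusted p = 0.0349), with a median of -0.12. That call was lost without WT replicate 1, WT replicate 2 or GIGYF1/2-null replicate 2 (adjusted p up to 0.219). Of 24 heat shock chaperones 0 were called in edgeR or limma-voom and 1 fell in DESeq2, 5 were lower at an unadjusted p under 0.05, and the median was -0.26. Well-counted genes as a whole sat below 0: over the 4986 tested genes with an average log2 CPM of at least 5 the median was -0.06.

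Genes of sterol and fatty acid synthesis had 2 falls and 0 rises among 31 tested (median -0.16). In edgeR 1.36% of all tested genes fell and 0.727% rose. At an unadjusted p under 0.05, 8 of the 31 were lower and 0 higher, beside 9.43% and 8.1% of all tested genes. The change was below 0 for 28 of the 31, where 49.6% of all tested genes were below 0. HMGCS1, the HMG-CoA synthase of early cholesterol synthesis, had 84.7 and 79.0 CPM in GIGYF1/2-null libraries, against 132 and 154 CPM in WT libraries (-0.81 ± 0.14, adjusted p = 0.0123). The groups did not overlap, and the gene does not lie in a stretch. That call was lost without either WT replicate (adjusted p up to 0.139). In glycolysis and hypoxia, 31 genes were tested, the hypoxia gene NDRG1 rose (0.64 ± 0.14, adjusted p = 0.0349) and hexokinase HK2 fell (-0.89 ± 0.14, adjusted p = 0.0102), with a median of -0.10. The HK2 call was lost without either WT replicate (up to 0.0995), and that of NDRG1 without these or GIGYF1/2-null replicate 2 (up to 0.225). Of 50 nuclear-encoded genes of oxidative phosphorylation 0 were called by edgeR, DESeq2 or limma-voom (1 higher and 2 lower at an unadjusted p under 0.05, median 0.02).

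Cell cycle and growth signalling lists differed in their medians. Of 47 genes of G1/S and DNA replication, CCND1 rose and the helicase subunit MCM2 fell (-0.99 ± 0.23, adjusted p = 0.0487), with a median of -0.20. DESeq2 and limma-voom each had 1 higher and 3 lower, and at an unadjusted p under 0.05 1 was higher and 14 lower. Over all tested genes 0.727% rose and 1.36% fell in edgeR, and 8.1% were higher and 9.43% lower at an unadjusted p under 0.05. Of 32 genes of G2/M and mitosis 2 fell, the spindle checkpoint kinase TTK (-0.78 ± 0.15, adjusted p = 0.0222) and the cytokinesis protein ANLN (-0.78 ± 0.17, adjusted p = 0.0422), with a median of -0.21. At an unadjusted p under 0.05, 1 of the 32 was higher and 10 were lower. The calls of MCM2, TTK and ANLN were lost without WT replicate 1, WT replicate 2 or GIGYF1/2-null replicate 2 (adjusted p up to 0.284 for MCM2, 0.143 for TTK and 0.252 for ANLN). Those of MCM2 and ANLN were also lost with RLE scaling, upper-quartile scaling and the stricter filter. CCND1 also stands in the lists of ERK feedback (1 of 11 rose, median 0.40) and Wnt targets (1 of 13 rose, median 0.23). At an unadjusted p under 0.05, 3 of the 11 were higher and 0 lower, and 5 of the 13 were higher and 1 lower. Of 16 targets of TGF-beta and BMP signalling 0 were called in edgeR or limma-voom and 1 rose in DESeq2, with 4 higher at an unadjusted p under 0.05 (8.1% of all tested genes) and a median of 0.31. The 23 immediate early genes had the same counts by each tool and unadjusted, with a median of 0.18. Among 24 p53 targets only RPRM, which holds cells in G2, rose, from few counts: 6.31 and 4.51 CPM in GIGYF1/2-null libraries (52 and 51 counts), against 0.724 and 0.757 CPM in WT libraries (5 and 8 counts), a change of 2.82 ± 0.39 (adjusted p = 0.00449) whose call was lost without WT replicate 2 (adjusted p = 0.0543). Of 54 replication-dependent histones 0 were called in edgeR and 1 rose in DESeq2 and in limma-voom (3 higher at an unadjusted p under 0.05, median 0.12), and close copies among them share reads.

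Matrix genes moved in both directions. Of 39 tested, 2 rose and 3 fell, with a median of -0.09, where 0.727% of all tested genes rose and 1.36% fell in edgeR. At an unadjusted p under 0.05, 4 of the 39 were higher and 8 lower, beside 8.1% and 9.43% of all tested genes. COL12A1, a collagen that sits on fibril surfaces, rose with LOX (1.81 ± 0.32, adjusted p = 0.0135). The laminin chain LAMB1 had 55.7 and 58.1 CPM in GIGYF1/2-null libraries, against 117 and 123 CPM in WT libraries (-1.08 ± 0.13, adjusted p = 0.00228). The laminin chain LAMA4 (-1.12 ± 0.18, adjusted p = 0.0102) and fibronectin, FN1 (-0.77 ± 0.14, adjusted p = 0.0162), fell as well, and LAMB1 and LAMA4 lie in the lowered stretches of chromosomes 7 and 6. The LAMB1 call held without each library. Those of LAMA4 and FN1 were lost without either WT replicate (adjusted p up to 0.0779 for LAMA4 and 0.135 for FN1), and that of COL12A1 without these or GIGYF1/2-null replicate 2 (up to 0.171). All 27 tested genes of the clustered protocadherins, adhesion proteins of nerve cells encoded side by side on chromosome 5, lie in a lowered stretch. At low counts 0 passed the test in edgeR, DESeq2 or limma-voom, 21 were lower at an unadjusted p under 0.05 (9.43% of all tested genes), and 23 had a change below 0 (49.6% of all tested genes), with a median of -1.39. Their summed footprints were 45.0 and 40.1 CPM in GIGYF1/2-null libraries and 57.2 and 73.8 CPM in WT libraries. Protocadherin mRNAs share exons, so single members are uncertain. Their counts may also repeat the same reads, so the 21 and the 23 may not stand for separate genes. The stretch, HARS2 to PCDHGC5, held 25 genes in mRNA, and 22 of the 23 protocadherins tested in mRNA fell there.

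Markers of other cell types gave calls in both directions, where 0.727% of all tested genes rose and 1.36% fell in edgeR. Of 18 neuronal genes 2 fell and 0 rose. TENM1, a teneurin that links neurons across the synapse, had 1.46 and 0.885 CPM in GIGYF1/2-null libraries, against 11.59 and 12.01 CPM in WT libraries. Its groups were farther apart on the log2 scale than those of any other named gene that fell (-3.37 ± 0.29, adjusted p = 1.58e-04). STMN3, a microtubule regulator, was lower by less (-0.82 ± 0.18, adjusted p = 0.0427). Of 7 epithelial genes 1 rose, keratin KRT8 (0.71 ± 0.15, adjusted p = 0.0366), whose mRNA change was larger (1.26 ± 0.11), and the difference between the 2 changes was not called (adjusted p = 0.750). Of 10 fibroblast and mesenchymal genes LUM, a matrix proteoglycan, rose (1.97 ± 0.45, adjusted p = 0.0462) from 2 and 8 counts in WT libraries, and the transcription factor SNAI2 fell (-0.88 ± 0.19, adjusted p = 0.0405). LUM was not called in DESeq2 or limma-voom, and STMN3 was not called in DESeq2. Of 6 tested leukocyte genes 0 were called by edgeR, DESeq2 or limma-voom (1 higher at an unadjusted p under 0.05, median 0.35). Apart from that of TENM1, each of these calls was lost when either WT replicate was left out, those of LUM, KRT8 and SNAI2 also without GIGYF1/2-null replicate 1, and those of STMN3 and LUM without GIGYF1/2-null replicate 2 (adjusted p up to 0.289). Tested neuronal genes summed to 1212 and 958 CPM in GIGYF1/2-null libraries and 1071 and 936 CPM in WT libraries, with SNAP25 at 0 counts. Tested epithelial genes summed to 279 and 245 CPM in GIGYF1/2-null libraries and 247 and 227 CPM in WT libraries, with KRT19, CLDN3, CLDN4, ESRP1 and GRHL2 at 0. Tested mesenchymal genes summed to 1603 and 1179 CPM in GIGYF1/2-null libraries and 2213 and 1867 CPM in WT libraries, with THY1 and FAP at 0. The part of these markers in the other results was not tested.

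**Figure D5:**
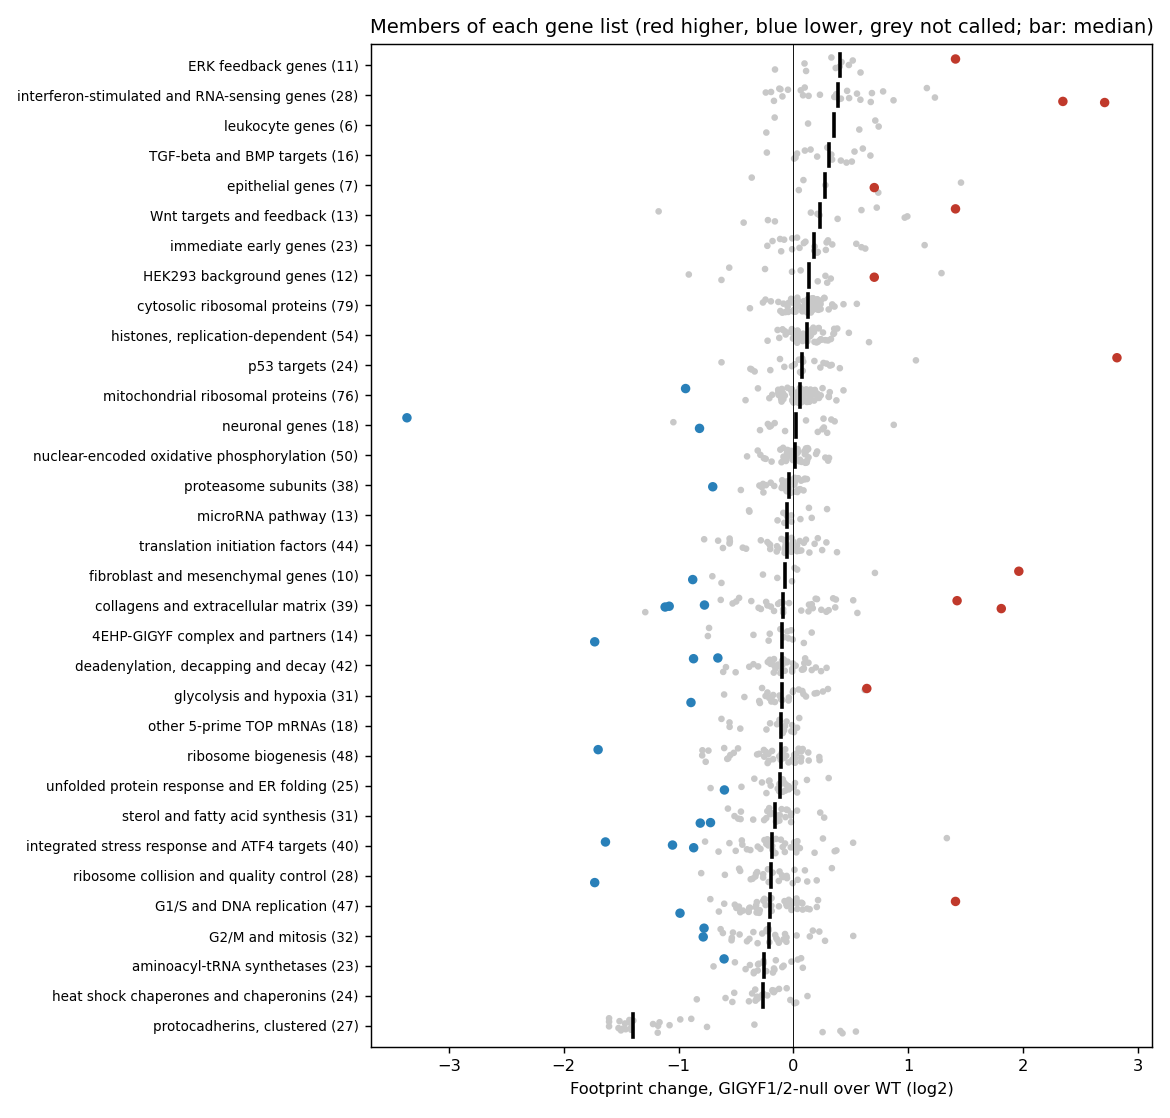
Footprint change of GIGYF1/2-null over WT on the log2 scale (x axis) for the tested members of each list, whose number stands in parentheses; points are genes, red where they rose, blue where they fell and grey where they were not called, and the black bar is the median. List medians run from 0.40 for ERK feedback genes to -0.26 for heat shock chaperones, apart from the clustered protocadherins at -1.39.

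The 4EHP-null Ribo-seq libraries share the WT libraries of this comparison, so their levels are only set beside it, with no test. CCND1, HMOX1 and ENPP2 in 4EHP-null libraries were near or below their WT levels, at 16.7 and 19.9 CPM for CCND1, 30.5 and 43.2 CPM for HMOX1 and 1.57 and 1.64 CPM for ENPP2. IFIH1 (4.88 and 5.18 CPM), OAS3 (9.13 and 10.1 CPM) and GPR50 (24.4 and 28.3 CPM) lay between the levels of GIGYF1/2-null and WT libraries. DHX36 was at 119 and 103 CPM in 4EHP-null libraries, above its WT libraries, and TENM1 was at 0.315 and 0.136 CPM, below the GIGYF1/2-null libraries. EIF4E2 itself, the gene named by the 4EHP-null label, was at 16.8 and 12.1 CPM there.

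The authors' deposited table of this footprint comparison lists 10766 genes, of which 245 were higher and 384 lower at an FDR under 0.05. It lists 265 of the 307 genes called here, and all 265 were called there in the same direction. The authors' deposited table of translation efficiency lists 9870 genes, 7 higher and 8 lower at an adjusted p under 0.05, and 27 have no p-value. Of the 53 genes that the naming rule gave, 50 were called in footprints, and 19 of these, 10 higher and 9 lower, kept their call in every alternative fit that tested them. Of the 9, 6 lie in lowered stretches and so were not tested in the fit without genes in stretches, and the other 3 are DHX36, THRAP3 and TENM1.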

How the data were processed

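Ribo-seq and RNA-seq of 3 HEK293T genotypes were deposited as whole-number read counts per gene symbol, which the authors did not normalize. The submitters' processing notes name Bowtie2, TopHat2, edgeR and the build hg19. A counting tool, annotation or strand setting was not given in the sources used here, which leaves overlapping and antisense genes uncertain. The authors' comparison tables hold log2 fold changes and p-values, per the file headers.

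Counts were tested in R 4.3.3 with edgeR 4.0.16 (filterByExpr, TMM scaling, quasi-likelihood F-test, two-sided, Benjamini-Hochberg adjusted p under 0.05) over the 6 libraries of an assay. The footprint change minus the mRNA change was tested as an interaction over 12 libraries. The biological coefficient of variation was 0.119 in Ribo-seq and 0.0862 in RNA-seq, whose libraries held 26143118 to 38175701 counts. A total of 3 comparisons were fitted. Some called genes are counted but not reported here. The code was tested on simulated data.

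The members, gene lists and naming rule were chosen with earlier results of these data known. Named genes were the complex (EIF4E2, GIGYF1, GIGYF2, ZNF598), the 10 largest rises and 10 largest falls among called protein-coding genes with groups that do not overlap and average log2 CPM of 3 or more, up to 6 per direction called both in footprints and in the difference, and up to 3 per direction in each list by adjusted p. MT2A, MT1A, GPR50-AS1, LOC100506127, the uncalled list members and the other called differences were added after their values were seen. The order of genes was read from RefSeq's GRCh38.p14 table, used only for neighbours and chromosomes, which matched 16561 of 17102 genes (96.8%). Promoter windows are RefSeq's. Alternatives were scaling by RLE or by upper quartiles, omitting the filter or asking for 50 counts in 2 libraries, DESeq2 1.42.0, limma-voom (limma 3.58.1), only the GIGYF1/2-null and WT libraries, the replicate number as a block, a minimum fold of 1.2 (glmTreat), leaving out genes in stretches, protein-coding genes alone, and leaving out each library in turn. A lone library left in a group is assumed to vary like the other groups.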

Additional observations from a re-analysis of the deposited data

Results flagged for a closer look

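The footprint change of 5 genes was above their mRNA change by the interaction test, so the same contrast gave unequal effects in the 2 assays. The difference was 1.00 for ORAI2, 1.08 for MLLT3, 1.30 for C3orf62, 1.32 for SMARCA2 and 1.42 for LINC01000 on the log2 scale. Of these, ORAI2, MLLT3, SMARCA2 and LINC01000 lie in stretches of neighbours with lowered mRNA, and the call of C3orf62 was lost when the genes in stretches were left out of the test.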

How the results depend on the processing

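The number of genes called in footprints, 307 in the reported test, was 296 with RLE scaling, 262 with a stricter filter, 307 in DESeq2 (75 higher, 232 lower), 325 in limma-voom and 417 among protein-coding genes alone. Upper-quartile scaling gave 132 higher and 139 lower (48.7% higher, against 34.9% in the reported test) and shifted the median of all genes to 0.06. It was 1135 without a filter on low counts, 174 with only the GIGYF1/2-null and WT libraries, 132 with a minimum fold of 1.2 and 95 without genes in stretches. Leaving out 1 library gave 59 to 671: 62 without WT replicate 1, 59 without WT replicate 2, 671 without GIGYF1/2-null replicate 1 and 152 without GIGYF1/2-null replicate 2. The mRNA count, 1868, was 764 with a minimum fold of 1.2, 1068 without genes in stretches and 783 to 1819 without 1 library. The 6 called differences between footprints and mRNA (5 higher, 1 lower) became 10 without a filter (7 and 3), 20 in DESeq2 (12 and 8), 4 with only the GIGYF1/2-null and WT libraries (1 and 3), 1 with a minimum fold of 1.2, 1 without genes in stretches (0 higher in both) and 1 to 4 without 1 library (0 to 2 higher). The cause of these changes was not tested, apart from the genes or libraries an alternative itself leaves out. With the replicate number as a block, 1747 genes were called in footprints, 3224 in mRNA and 25 in the difference (13 higher, 12 lower). Same-numbered libraries deviated together (correlation 0.642 between GIGYF1/2-null and WT, 0.390 between GIGYF1/2-null and 4EHP-null and 0.267 between 4EHP-null and WT in Ribo-seq, and 0.531, 0.294 and 0.211 in RNA-seq). The labels do not say that the numbers pair samples, and each genotype has 2 libraries of an assay. The share of fallen genes that lie in lowered stretches, 64.5%, was 41.9% without a filter, 35.4% with the block, 73.7% with a minimum fold of 1.2 and 31.2% to 75.7% without 1 library. Uncalled changes near 0 turned sign: ZNF598 was 0.0567 with upper-quartile scaling, 0.0226 with a stricter filter and -0.0664 to 0.0598 without 1 library (above 0 without WT replicate 1 or GIGYF1/2-null replicate 2). GIGYF2 ran from -0.572 to 0.0846 without 1 library (above 0 without the same libraries), and EIF4E2 from -0.0035 (without WT replicate 2) to 0.190. Among the named genes no called change turned sign in the alternatives run. The median standard error was 0.35 over the 3681 genes with the lowest counts and 0.14 over the 3681 with the highest.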
